A study of Homo sapiens with 6 samples.

Results

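The genes described here build the red cell membrane or sit on the red cell surface: the glycophorin genes GYPB, GYPC and GYPE, the skeleton genes EPB41, EPB42 and ANK1, the anion exchanger SLC4A1 and the erythropoietin receptor EPOR. They were chosen by name, as every transcript that the GENCODE annotation assigns to 1 of these symbols, which gave 8 of 62252 genes and 98 of 252045 transcripts. They were measured by RNA-seq of polyadenylated RNA in K562 cells, a human leukaemia line that expresses globins and other erythroid genes. The cells were treated overnight with 10 µM 21H7, a small molecule that binds iron and crosses membranes (Chelator, 3 libraries), or with the same volume of its solvent (DMSO, 3 libraries). K562 is 1 transformed line, and the series calls the libraries of a group biological replicates without saying whether they came from separate cultures, so p-values measure the spread between these libraries, which may be technical.

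The red cell membrane is held in shape by a network of spectrin and short actin filaments under the lipid bilayer. The network is fastened at 2 kinds of junction: ankyrin ties spectrin to band 3, the anion exchanger, and the protein made by EPB41 ties spectrin and actin to glycophorin C. Most of these proteins accumulate late in red cell formation, whereas the erythropoietin receptor acts earlier, when it signals survival to progenitor cells.

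The libraries held 78615500 to 90383641 estimated fragment counts in DMSO and 85449857 to 101094957 in Chelator. The length that salmon takes off a transcript to get its effective length, which follows the fragment size, had a median of 252 to 264 bases in DMSO and 200 to 218 bases in Chelator, so the groups did not overlap, and its part in the results below was not tested. Erythroid markers (globins, ALAS2, GATA1 and others) were all detected, with summed levels of 16974 to 18563 TPM (a transcript's share of the library, scaled for its length) in DMSO and 22517 to 24013 TPM in Chelator. The sum hides both directions. In the expression test described below, 5 of these 11 markers were higher, 3 were lower and 3 did not pass (median log2 fold change 0.15). Over all genes 18.5% were higher and 17.4% lower in that test. Of 20 markers of megakaryocytic, myeloid, lymphoid and stromal cells, 6 stayed under the count minimum for testing (GP9, PF4, PPBP, ELANE, MS4A1 and PDGFRA), and the summed levels were 4.42 to 5.15 TPM in DMSO and 7.56 to 9.14 TPM in Chelator for the megakaryocytic list and 11.4 to 12.2 TPM and 19.1 to 20.9 TPM for the myeloid list, most of which was LYZ. The lymphoid list summed to 1.57 to 2.14 TPM and 3.08 to 3.60 TPM and the stromal list to 0.554 to 0.728 TPM and 1.74 to 2.28 TPM, in the same order. The part of these cell type levels in the results was not tested. In bulk RNA, fewer cells of a type and less RNA per cell cannot be told apart.

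The sequences in this paragraph are shown because the glycophorin results depend on how alike these genes are, and because the alternative exons of EPB41 are described later. GYPB (chr4:143996104-144019380, minus strand) and GYPE (chr4:143870864-143905563, minus strand) are neighbours in the GRCh38 build, and over the first 135 coding bases their main transcripts differ at 4 positions, which are in capitals. These bases lie in 2 coding exons of each gene, with outer bounds of chr4:144001186-144019287 for GYPB and chr4:143880412-143905507 for GYPE.
GYPB: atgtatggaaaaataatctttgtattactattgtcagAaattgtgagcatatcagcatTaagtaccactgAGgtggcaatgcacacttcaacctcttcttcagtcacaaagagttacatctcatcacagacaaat
GYPE: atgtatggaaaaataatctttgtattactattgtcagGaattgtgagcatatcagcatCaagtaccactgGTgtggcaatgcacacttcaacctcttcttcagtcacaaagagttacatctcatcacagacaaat
The next pair are 2 EPB41 exons (plus strand) in capitals with 30 bases of intron on each side, the 42-base exon at chr1:29058781-29058882 and the 63-base exon at chr1:29060392-29060514, bounds that include the intron bases. Both lengths are multiples of 3, so that skipping either exon keeps the reading frame, and the 63-base exon codes for part of the stretch of the protein that binds spectrin and actin.
EPB41 42-base exon: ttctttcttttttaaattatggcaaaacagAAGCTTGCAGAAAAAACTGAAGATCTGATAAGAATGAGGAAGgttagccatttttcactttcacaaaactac
EPB41 63-base exon: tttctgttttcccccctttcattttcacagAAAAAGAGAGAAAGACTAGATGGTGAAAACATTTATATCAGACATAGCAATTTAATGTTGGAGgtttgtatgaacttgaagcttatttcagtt

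Of the 8 genes, 4 were higher in Chelator (SLC4A1, GYPE, GYPB and EPB42), 2 were lower (ANK1 and EPOR), and GYPC and EPB41 did not pass the test, at a Benjamini-Hochberg adjusted p under 0.05 in DESeq2's Wald test. Over all 25553 genes with an adjusted p, 35.9% passed, with 18.5% higher and 17.4% lower. Calls that also asked for a log2 fold change beyond 1 in size were made for 2 of the 8 genes, SLC4A1 and GYPE, against 10.3% of all genes, 7.81% called higher and 2.46% called lower. The groups did not overlap for 6 of the 8 genes, against 47.9% of all genes, and 4 of the 8 were higher in Chelator without overlap, against 25% of all genes. Over the 8 genes the log2 fold changes had a median of 0.37, against 0.02 over all genes.

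**Figure D1:**
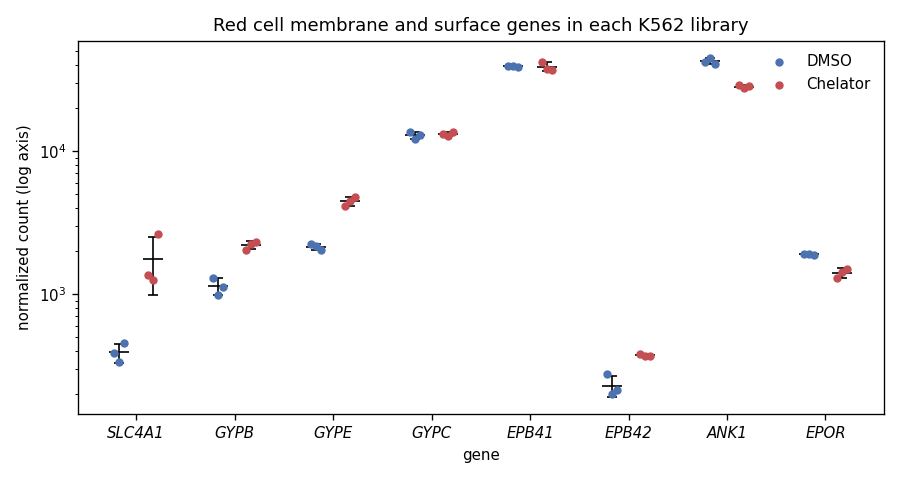
Normalized counts (log axis, corrected for library size and average transcript length) of the 8 genes in each library, with 1 point per library and black marks for the mean and SD of the 3 DMSO and 3 Chelator libraries. SLC4A1, GYPB, GYPE and EPB42 sit higher in all Chelator libraries, ANK1 and EPOR sit lower, and GYPC and EPB41 overlap, with Chelator library 3 far above the other Chelator libraries for SLC4A1.

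**Figure D2:**
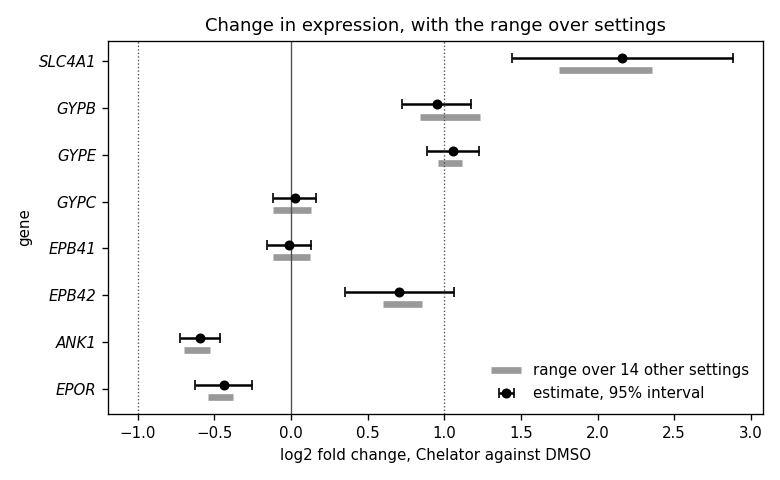
Log2 fold change of each gene, Chelator against DMSO, with its 95% interval (black) and the range of the estimate over 14 other settings (grey). These settings include the fits that leave a library out. The intervals of GYPC and EPB41 include 0, SLC4A1 lies beyond the dotted line at 1, and GYPB and GYPE lie close to that line.

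SLC4A1 (chr17:44248390-44268141, minus strand) codes for band 3, the chloride-bicarbonate exchanger and the main membrane anchor of ankyrin. Its counts were low, at 410, 384 and 363 in DMSO and 1628, 1773 and 1596 in Chelator. All Chelator libraries were therefore well above all DMSO libraries. After normalization the values were 386, 333 and 453 in DMSO and 1365, 1256 and 2632 in Chelator, and Chelator library 3 stood apart within its group. The gene rose 4.48-fold, a log2 fold change of 2.16 ± 0.37 (SE) (adjusted p = 3.86e-08).

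The separation of Chelator library 3 came with a single short transcript of 419 bases and no coding sequence, SLC4A1-203. It was given 71.5 counts and 3.91 TPM in that library and 0 in the 5 other libraries, and the average length assigned to the gene was 2501 bases there against 4596 and 4811 bases in the other Chelator libraries. The full-length coding transcript SLC4A1-201, which has 20 exons, was at 1.03, 1.17 and 1.04 TPM in DMSO and 3.93, 3.99 and 4.01 TPM in Chelator. These values hardly varied within a group. Without the length correction the log2 fold change of the gene was 1.88, and without Chelator library 3 it was 1.75, and the gene was called under both.

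GYPE codes for a small glycophorin-like protein whose product has rarely been seen on red cells, and GYPB for glycophorin B, which carries the S and s blood group antigens. GYPE had 2264, 2152 and 1757 counts in DMSO and 4401, 5288 and 4413 in Chelator, and normalized values of 2238, 2173 and 2028 against 4168, 4485 and 4769. The groups were far apart relative to their spread. This was a 2.08-fold rise, or 1.06 ± 0.09 on the log2 scale (SE) (adjusted p = 1.43e-32).

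GYPB had 1139, 858 and 873 counts in DMSO and 2432, 2901 and 2573 in Chelator. The normalized values were 1300, 989 and 1130 in DMSO and 2051, 2237 and 2321 in Chelator, so every Chelator library was above every DMSO library. The log2 fold change was 0.95 ± 0.12 (SE), with a 95% interval of 0.72 to 1.18 (adjusted p = 4.37e-15). Its size lay just under the call threshold of 1, and that of GYPE just above it. Without the length correction the order turned, with 1.23 for GYPB and 0.96 for GYPE, since the average length given to GYPB was 226 to 229 bases in DMSO and 272 to 282 bases in Chelator while that of GYPE went from between 1057 and 1075 bases to between 967 and 1030 bases.

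Reads of these genes can be split between them only where their sequences differ. Of all 31-base words in GYPB transcripts, 29.2% also occurred in transcripts of other genes, and in the main transcript GYPB-202 (564 bases) 43.3% of the words were shared with other genes, 21.5% with GYPE. For GYPE the share was 7.19%, and 5.07% for its main transcript GYPE-201 (1687 bases). The files give no measure of how surely reads were divided, so the sizes given for GYPB and GYPE each depend on that division.

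Within GYPB, the main transcript GYPB-202 went from 34.7, 31.6 and 30.0 TPM in DMSO to 58.1, 62.6 and 65.1 TPM in Chelator, and the short coding transcript GYPB-213 from 12.5, 9.36 and 13.4 TPM to 14.9, 20.1 and 21.3 TPM. Neither transcript's groups overlapped. Within GYPE, GYPE-201 had 19.2, 22.7 and 17.7 TPM in DMSO and 35.1, 39.6 and 37.6 TPM in Chelator. The 499-base GYPE-202, with a coding sequence of the same 234 bases, had 6.14, 7.44 and 5.98 TPM in DMSO and 15.6, 18.4 and 22.3 TPM in Chelator. Its share of the gene's TPM was 24.4% ± 0.760 in DMSO and 32.9% ± 3.40 in Chelator (SD, n = 3), a change that did not pass the transcript test described later.

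GYPC (chr2:126656133-126696667, plus strand) codes for glycophorins C and D from 1 gene, which shared no 31-base word with any other gene. Its normalized values were 13693, 12201 and 13024 in DMSO and 13175, 12820 and 13567 in Chelator. The groups overlapped throughout. The log2 fold change was 0.02 with a 95% interval of -0.12 to 0.16 (adjusted p = 0.851), which leaves no room for a change as large as that estimated for GYPB or GYPE. It was the most abundant of the 8 genes, at 199 ± 9.12 TPM in DMSO and 206 ± 6.14 TPM in Chelator (SD, n = 3).

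The main transcripts of GYPC did not share a direction. GYPC-201 (1018 bases, 4 exons) was at 172, 180 and 164 TPM in DMSO and 181, 185 and 188 TPM in Chelator. GYPC-203 (932 bases, 3 exons), whose coding sequence is 327 bases against 384 in GYPC-201, was at 21.8, 24.5 and 21.7 TPM in DMSO and 13.4, 14.9 and 16.6 TPM in Chelator. All Chelator libraries were below all DMSO libraries for the shorter transcript, whose share went from 11.4% ± 0.358 to 7.24% ± 0.558 (SD, n = 3). Neither transcript passed edgeR's usage test (adjusted p = 0.530 for GYPC-203). For the gene, limma's diffSplice gave an adjusted p of 0.00131, and the largest change in share, 4.16 percentage points, stayed under the 5 points asked of a call.

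ANK1 (chr8:41653220-41896741, minus strand) codes for erythroid ankyrin, which links band 3 to spectrin. Its counts were 39644, 43150 and 35467 in DMSO and 31591, 33441 and 28160 in Chelator, and its normalized values 42165, 45323 and 41117 against 29165, 27538 and 28601. The groups did not overlap, and the Chelator libraries lay close together. ANK1 was 1.51-fold lower in Chelator, at a log2 fold change of -0.59 ± 0.07 (SE, adjusted p = 3.61e-17). The ligand of ankyrin in the membrane, band 3, thus moved the opposite way at the RNA level, although its gene stayed at 5.62 TPM in Chelator against 65.9 TPM for ANK1.

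Each main transcript of ANK1 was lower in Chelator. ANK1-205, the coding transcript of 42 exons, went from 40.1, 54.9 and 42.5 TPM in DMSO to 30.3, 29.9 and 31 TPM in Chelator. ANK1-214, a coding transcript of 14 exons that begins inside the gene, went from 33.2, 37.9 and 29.6 TPM to 21.5, 19.6 and 18.9 TPM. ANK1-216, with 42 exons and a shorter end, went from 6.98, 9.74 and 8.51 TPM to 5.51, 5.65 and 4.49 TPM. None of the 3 overlapped between the groups, and their shares of the gene differed by less than the 5 percentage points asked of a call.

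EPB41 (chr1:28887091-29120046, plus strand) codes for the protein that joins spectrin, actin and glycophorin C. Its normalized values were 39623, 39837 and 39004 in DMSO and 42531, 37881 and 37074 in Chelator. Chelator library 1 lay above all DMSO libraries and the other Chelator libraries below them, so the groups overlapped. The log2 fold change was -0.01 with a 95% interval of -0.15 to 0.13 (adjusted p = 0.929), and its sign changed with the scaling. EPB42 (chr15:43197227-43221018, minus strand) codes for a transglutaminase-like protein without enzyme activity that binds band 3 and ankyrin.

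EPB42 had 245, 187 and 183 counts in DMSO and 428, 462 and 369 in Chelator, the fewest of the 8 genes. The normalized values were 274, 200 and 214 in DMSO and 383, 370 and 369 in Chelator, with no overlap and a much tighter Chelator group. EPB42 rose 1.63-fold, a log2 fold change of 0.71 ± 0.18 (SE, adjusted p = 4.43e-04). The main coding transcript EPB42-201 (13 exons) was at 1.29, 1.14 and 1.05 TPM in DMSO and 1.83, 2.08 and 2.06 TPM in Chelator. In that transcript 18% of the 31-base words also belong to an overlapping long noncoding RNA.

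EPOR (chr19:11377207-11384342, minus strand) codes for the receptor of erythropoietin, which signals through JAK2 and STAT5. It had 1788, 1782 and 1631 counts in DMSO and 1389, 1744 and 1520 in Chelator. Normalized, these were 1900, 1923 and 1893 against 1290, 1425 and 1505, a narrow DMSO group above a wider Chelator group without overlap. EPOR was 1.35-fold lower in Chelator, at a log2 fold change of -0.44 ± 0.10 (SE, adjusted p = 2.47e-05).

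The lower total of EPOR was uneven over its transcripts. EPOR-201, the full-length coding transcript of 8 exons, was at 3.72, 4.12 and 4.91 TPM in DMSO and 4.19, 4.17 and 4.13 TPM in Chelator, with overlapping groups. EPOR-203, which keeps an intron and has no coding sequence, was at 2.25, 3.20 and 2.56 TPM in DMSO and 0.746, 1.99 and 1.33 TPM in Chelator, without overlap. The second coding transcript EPOR-208 had 2.76, 3.61 and 1.99 TPM in DMSO and 1.82, 1.5 and 2.17 TPM in Chelator, with overlap. EPOR-207, annotated as a target of nonsense-mediated decay, had 1.32, 1.33 and 0.983 TPM in DMSO and 0.639, 0.942 and 1.15 TPM in Chelator, also with overlap. Transcripts annotated as retaining an intron held 25.6% ± 1.63 of the gene's TPM in DMSO and 17.6% ± 6.80 in Chelator (SD, n = 3), and no transcript of EPOR passed the usage test.

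**Figure D3:**
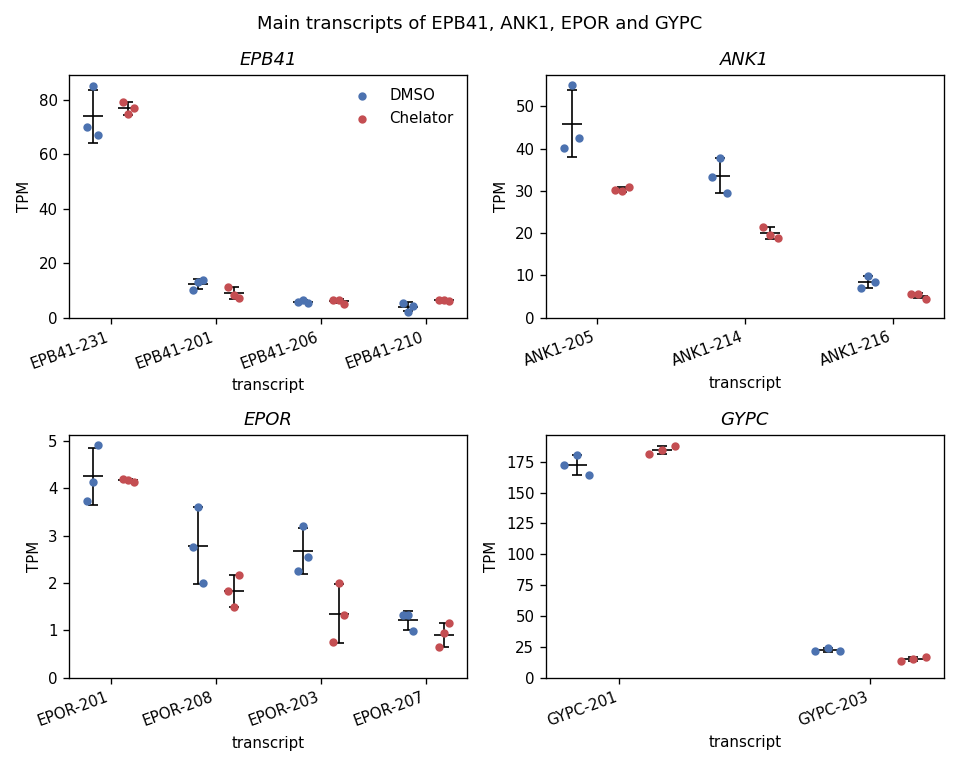
Level in TPM of the main transcripts of EPB41, ANK1, EPOR and GYPC in each library, with 1 point per library and black marks for the mean and SD of 3 libraries. The 3 ANK1 transcripts and EPOR-203 are lower in all Chelator libraries, EPOR-201 overlaps, and GYPC-203 is lower in all Chelator libraries while GYPC-201 is higher.

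Ordered by level in TPM, a scale that accounts for length, the DMSO means ran from GYPC at 199 through EPB41 at 114, ANK1 at 97.9, GYPB at 58.0, GYPE at 26.8 and EPOR at 11.2 to EPB42 at 1.41 and SLC4A1 at 1.22. EPB41 and ANK1 overlapped between libraries, as did EPB42 and SLC4A1. In Chelator GYPB, at 115 TPM, stood level with EPB41 at 114 TPM and overlapped it, and both were above ANK1 at 65.9 TPM and GYPE at 56.8 TPM. SLC4A1 at 5.62 TPM was then above EPB42 at 2.36 TPM in every library, and overlapped EPOR at 8.42 TPM only through Chelator library 3.

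Transcript usage, the split of a gene's RNA over its transcripts, was tested for 7 of the 8 genes with edgeR's quasi-likelihood diffSpliceDGE, since SLC4A1 had too few expressed transcripts. Calls asked for an adjusted gene-level p under 0.05 and a change in a transcript's share beyond 5 percentage points. Of all 11938 genes tested 9.22% were called, and of the 7 genes 0 were called, with 1 of the 7 (EPB41) at an unadjusted p under 0.05 and 0 called by limma's diffSplice, which called 26.7% of all genes. Without DMSO library 3, 1 was called, GYPB, through GYPB-211, a transcript without a coding sequence that held 0, 0 and 28.3 counts in DMSO and 50.5, 199 and 190 counts in Chelator.

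EPB41 passed the p threshold alone (adjusted p = 0.0310), and it did not pass by limma's diffSplice (0.0771), with a filter of 1 count (0.0621), or without DMSO library 1 (0.185), DMSO library 3 (0.115), Chelator library 1 (0.345) or Chelator library 2 (0.484). It passed with the replicate block (0.00659), without DMSO library 2 (0.0187) and without Chelator library 3 (4.07e-05). The transcript behind it was EPB41-202, whose share was 0.574% in DMSO and 0.0331% in Chelator (170, 39.0 and 113 counts against 0, 0 and 18.8). The main transcript EPB41-231 (18 exons, coding sequence of 1803 bases) held 65.1% ± 2.06 of the gene's TPM in DMSO and 67.3% ± 3.01 in Chelator, and the second, EPB41-201 (21 exons, coding sequence of 2592 bases), 10.9% ± 1.87 and 7.78% ± 1.49 (SD, n = 3). EPB41-206 held 5.16% and 5.21%. Of the 40 transcripts annotated for EPB41, 15 reached 10 counts in every library.

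Alternative exons were read from the same transcript levels as percent spliced in, the TPM of transcripts that hold the exon out of those that hold it or skip it between the same neighbours. The labels give 3 libraries a group, so an exact two-sided permutation test cannot go below p = 0.10. Of 7 exons with at least 5% of their gene's TPM on each side, 3 did not overlap between the groups, against 28.2% of the 12790 exons of all genes that met the same condition. The 63-base exon of EPB41 (chr1:29060422-29060484), the one in the spectrin-actin binding stretch that red cell precursors switch on late in their maturation, was included at 18.6%, 19.2% and 21.6% in DMSO and 18%, 17% and 14.6% in Chelator. Chelator was lower in all libraries by a narrow margin, with a difference of means of -3.26 percentage points (exact permutation p = 0.10).

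The 42-base exon of EPB41 (chr1:29058811-29058852) was included at 50.8%, 60.4% and 63.7% in DMSO and 48.1%, 39.4% and 40.9% in Chelator, a difference of -15.5 points (exact permutation p = 0.10). Including and skipping transcripts together held 20.9% of the gene's TPM in DMSO and 20.2% in Chelator, since EPB41-231, which lacks the exon and the neighbour before it, counts on neither side, against 97.1% in both groups for the 63-base exon. The skipping side of this exon rested on 604 to 1104 counts per library and partly on EPB41-210, a 262-base transcript with 4.87 to 36.0 counts. The difference was -10.9 points over transcripts of at least 500 bases and -4.57 points, with overlap, from estimated counts. The 57-base exon just before it (chr1:29058589-29058645) had 18.6% ± 1.35 in DMSO and 16% ± 1.70 in Chelator (SD, n = 3), a difference of -2.55 points with overlap, and -3.98 points without overlap from estimated counts. Leaving a library out gave -3.23 to -1.60 points for the 57-base exon, without overlap when DMSO library 1 or Chelator library 1 was left out. From estimated counts the 63-base exon stayed without overlap, at -3.77 points.

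The remaining EPB41 exons of these 7 differed by less than 1 percentage point. The 80-base exon (chr1:28989356-28989435) had means of 6.12% and 6.16%, and the 102-base exon (chr1:29109336-29109437) 93.9% and 93.7%, in DMSO and Chelator. In ANK1 a 24-base exon (chr8:41700431-41700454) was included at 21.1%, 19.9% and 21.9% in DMSO and 25.2%, 24.6% and 23.2% in Chelator, a difference of 3.39 points without overlap (exact permutation p = 0.10), and with overlap when estimated counts replaced TPM (2.74 points). Its including and skipping transcripts held 59.2% of the gene's TPM in DMSO and 61% in Chelator. An 84-base exon of ANK1 (chr8:41663659-41663742) had means of 91.2% and 91.8%.

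**Figure D4:**
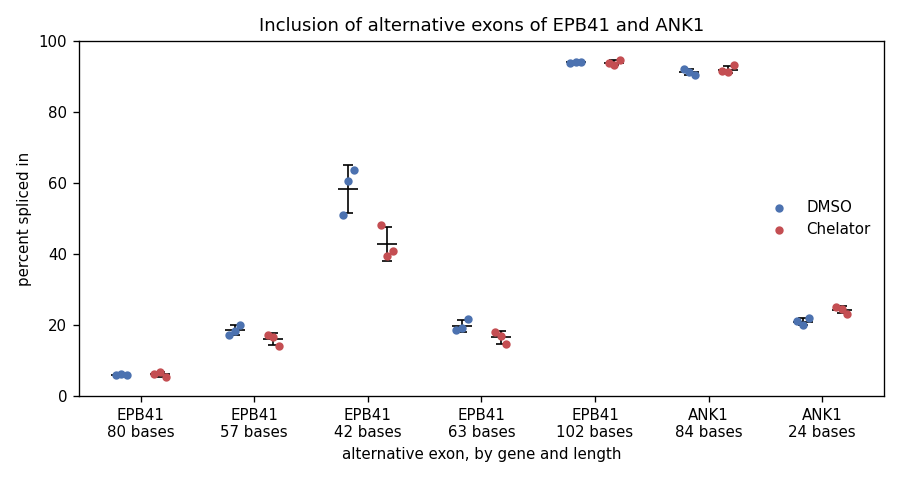
Percent spliced in of 5 EPB41 exons and 2 ANK1 exons, named by their length, in each library, with 1 point per library and black marks for the mean and SD of 3 libraries. The 42-base and 63-base exons of EPB41 are lower and the 24-base exon of ANK1 is higher in all Chelator libraries, and the other 4 exons overlap.

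The intron after the 63-base exon carries the motif TGCATG, the binding word of the RBFOX splicing factors, 3 times in its first 300 bases on the transcribed strand. The 300 bases after the 42-base exon, which differed more between the groups, carry it 0 times. Of 19318 internal exons of protein-coding transcripts on chromosome 1, 9.43% are followed within 300 bases by at least 1 copy and 0.104% by at least 3. Of 10 genes for proteins known to act on the 63-base exon or similar exons, 1 was higher at an adjusted p under 0.05, 5 were lower and 4 did not pass, with a median log2 fold change of -0.12. The shares over all genes were 18.5% higher and 17.4% lower, with a median of 0.02. SRSF1, an exon-definition factor, changed by -1.02 (adjusted p = 1.44e-38), MBNL1 by -0.52 and CELF1 by -0.30, whereas MBNL2 changed by 0.96. With GC content and length trends removed MBNL1 was at -0.34 and CELF1 at -0.17, both still at an adjusted p under 0.05. What these genes or the motif have to do with either exon was not tested.

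Promoter sequences of 6 of the 8 genes were matched in RefSeq (GRCh38.p14), and SLC4A1 and ANK1 were not. The GATA words AGATAA or TGATAA, on either strand, occurred between 250 bases before and 50 after the start in GYPB, GYPE, EPB42 and EPOR and not in GYPC or EPB41, against 16.3% of all 35116 promoters. The promoters of GYPB and GYPE were 97.6% identical over 294 aligned bases, so they are not separate examples. The hypoxia-response core words ACGTG (21.4% of all promoters) and GCGTG (36.5%) were also searched on both strands, and ACGTG occurred in EPOR and GCGTG in GYPC and in 1 of the 2 promoters of EPB41. A word in these windows is a description of the sequence only. The 250 bases before the start are shown for 2 of the genes that rose, with the GATA words in capitals, for GYPE from chr4:143905560-143905809 and for EPB42 from chr15:43221019-43221268, both on the minus strand.
GYPE promoter: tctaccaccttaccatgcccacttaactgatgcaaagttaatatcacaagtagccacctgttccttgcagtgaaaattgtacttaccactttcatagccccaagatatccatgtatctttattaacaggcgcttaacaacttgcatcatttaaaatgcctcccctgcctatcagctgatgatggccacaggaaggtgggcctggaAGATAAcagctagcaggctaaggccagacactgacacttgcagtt
EPB42 promoter: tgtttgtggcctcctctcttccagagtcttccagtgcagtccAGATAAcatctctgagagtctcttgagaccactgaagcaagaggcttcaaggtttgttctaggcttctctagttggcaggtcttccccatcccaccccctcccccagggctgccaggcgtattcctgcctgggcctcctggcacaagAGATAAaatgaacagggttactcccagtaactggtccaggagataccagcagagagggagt

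Around these 8 genes the other parts of the membrane were mixed in direction. Of 15 further skeleton genes, 6 were higher, 5 were lower and 4 did not pass (median log2 fold change 0.15), and 0 were called beyond 1, where edgeR's quasi-likelihood test also called 0 and DESeq2 without the length correction called 2. All genes were also split, with 18.5% higher and 17.4% lower, and 10.3% were called. Among all genes edgeR called 2774 of 26074, and DESeq2 without the length correction 2854 of 25551. DMTN, which bundles actin under the membrane, changed by 0.96 and SPTAN1, a nonerythroid spectrin, by 0.75, whereas TMOD3, an actin-capping tropomodulin, changed by -0.35. With GC content and length trends removed TMOD3 was at -0.14 (adjusted p = 0.153).

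Of 27 surface genes tested, 12 were higher, 7 were lower and 8 did not pass (median 0.21), with 4 called higher and 0 called lower. Over all genes 18.5% were higher and 17.4% lower, with 7.81% called higher and 2.46% called lower. CD44, the receptor for hyaluronan, changed by 5.65 from a mean of 55.2 to 2669 normalized counts, SEMA7A, which carries the John Milton Hagen antigen, by 1.79, RHCE by 1.46 and RHD by 1.07, and the last pair code for near-identical Rh proteins whose reads can be split wrongly between them. Of 16 relatives of these genes in other tissues, 3 were higher, 2 were lower and 11 did not pass (median 0.20), against 18.5% higher and 17.4% lower over all genes. Among these EPB41L1 changed by 0.76, SLC4A7 by -0.63 and SLC4A2, the widely expressed anion exchanger, by -0.42. SLC4A7 was at -0.41 with GC content and length trends removed. SLC4A2 thus moved against SLC4A1 and kept 36122 normalized counts in Chelator.

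Of 23 genes of erythropoietin signalling, 7 were higher, 8 were lower and 8 did not pass (median -0.04), against 18.5% higher and 17.4% lower over all genes. Calls were made for 2 as higher and 0 as lower, against 7.81% and 2.46% of all genes. The 2 called were SOCS1, an inhibitor of JAK kinases, at 2.16 and ERFE, the erythroid hormone that lowers hepcidin, at 1.60. STAT5A, which the receptor activates, changed by -0.91 and PTPN11, a phosphatase of the same pathway, by -0.79, the same direction as EPOR. All 4 changes had adjusted p-values at or below 1.00e-20.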

How the data were processed

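The authors quantified paired-end reads with salmon (version 1.10.2 per the labels' processing notes) against human transcripts, and deposited per library the estimated counts, the TPM (transcript abundance scaled for effective length and library total) and the effective length of each transcript; the build named is hg38. The deposited transcripts were assigned to genes with GENCODE release 44 (GRCh38), which left at most 0.150% of a library's estimated counts unmatched. Counts and TPM were summed per gene, and counts were rounded.

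Genes with a total above 10 counts were fitted in DESeq2 1.42.0 (Wald test, median-ratio size factors, the average transcript length per gene and library as offset, all 6 libraries, no covariate), the test and thresholds of the study's methods, with Benjamini-Hochberg adjustment over all genes. Transcript usage was tested in edgeR 4.0.16 over transcripts that reached 10 counts in 3 or more libraries, with gene-level Simes p-values. Percent spliced in was compared with an exact two-sided permutation test. All 8 genes are given in full. Transcripts are named at 5% of the gene's TPM or more for EPB41 and ANK1 and 10% for the others, except SLC4A1-203, EPB41-202 and GYPB-211, chosen after their values were seen. SLC4A1-204, which also passed 10%, held at most 11.8 counts in a library. Up to 4 genes per further list are named, with some items not reported here, those with the largest change among genes with an adjusted p under 0.05, a mean of at least 100 normalized counts and no overlap. The genes and lists were chosen with earlier results of these data known. Estimated counts carry the uncertainty of dividing reads between similar transcripts, which the files do not give. The fits were tested on simulated counts. Alternatives were another normalization, filter, test, offset, centring, a block and each library left out.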

Additional observations from a re-analysis of the deposited data

How the results depend on the processing

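SLC4A1, GYPB, GYPE and EPB42 stayed higher, and ANK1 and EPOR lower, with an adjusted p under 0.05 under all 14 alternatives that tested against no change. The number of the 8 genes called beyond a log2 fold change of 1, which was 2, went to 1 when the mean log2 change over genes was set to 0 (GYPE at 0.96) and to 0 when the change itself was tested against 1 (SLC4A1 adjusted p = 0.06), a test that left 671 calls over all genes against 2624. Without the length offset 2 were called, GYPB in place of GYPE. That centring moved the median of all genes from 0.02 to -0.08 on the log2 scale. GYPC, which passed no test, was -0.081 under it and -0.12 with GC and length trends removed. EPB41, which also passed none, was 0.032 with TMM factors, 0.032 in edgeR and 0.12 with those trends removed. Leaving out each library in turn gave 2 to 3 called genes, -0.022 to 0.061 for GYPC, -0.072 to 0.028 for EPB41, 1.75 to 2.35 for SLC4A1, 0.85 to 1.05 for GYPB and 0 to 1 genes called for transcript usage (GYPB, without DMSO library 3). The cause of these shifts was not tested. Of 90 list genes with an adjusted p, 7 were called, against 10.3% of all genes. Under the alternatives 5 to 10 list genes were called. The count of exons without overlap, which was 3 of 7, was 2 from estimated counts (the 63-base exon of EPB41 again, and its 57-base exon) and 3 to 4 without 1 library.

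The labels number the libraries 1 to 3 in both groups. Deviations from the group means of libraries with the same number correlated at 0.00775, 0.130 and 0.0998. The values for numbers 2 and 3 were the highest of all pairs. DMSO 2 with Chelator 3 gave -0.121 and DMSO 3 with Chelator 2 gave -0.0988, while DMSO 1 correlated best with Chelator 3 (0.0366). All were small and number 1 did not match best, so the numbers were not taken to pair the libraries. With the replicate number as a block, 2 of the 8 genes were called for expression and 0 for transcript usage. The same block called 7 of 88 list genes and 2333 of 23546 genes in all for expression.

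Depth limits EPB42 and SLC4A1 most, at 183 to 462 counts and 363 to 1773 counts per library, and the split of transcripts with under 100 counts.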
